A study of Homo sapiens with 6 samples.

Results

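Transcripts of 10 integrin subunits were followed in HCT116 cells, WT or LSD1 KO. The rule that names them is a list of gene symbols and uses no measured value, although the list was drawn up with earlier results of these data known. It holds the alpha subunits ITGA2, ITGA3, ITGA5, ITGA6 and ITGAV and the beta subunits ITGB1, ITGB4, ITGB5, ITGB6 and ITGB8. They are 10 of the 60240 genes listed by Ensembl identifier in the deposited RNA-seq table. HCT116 is a colorectal carcinoma cell line. The WT group held 3 libraries of WT cells, and the LSD1 KO group held 3 libraries of cells in which Cas9 and a guide RNA had been directed at exon 1 of KDM1A, the gene of the histone demethylase LSD1. Edited cells were selected with puromycin and grown out as individual clones, and the sources used here do not say how many clones gave the 3 libraries. The methods speak in general of biological replicates for all experiments, without saying whether the 3 RNA-seq libraries of a group came from separate cultures or clones. The p-values measure the spread between these libraries, which may in part be technical.

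Integrins are cell surface receptors made of 1 alpha and 1 beta subunit, and they tie the extracellular matrix outside the cell to the actin or keratin network inside. In most integrins the beta subunit carries the tail that binds talin and kindlin, whereas the alpha subunit largely sets which ligand is bound. ITGB1 pairs with ITGA2 as a collagen receptor, with ITGA3 or ITGA6 as laminin receptors and with ITGA5 as the fibronectin receptor. ITGB4 pairs only with ITGA6, and this pair anchors epithelial cells to laminin in hemidesmosomes. ITGAV pairs with ITGB1, ITGB5, ITGB6 or ITGB8, which bind ligands with an Arg-Gly-Asp motif, and its pairs with ITGB6 and ITGB8 are known for the release of active TGF-beta. In the intestinal epithelium integrins hold the cells on the basement membrane.

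The CpG content of the promoters is given because the study was built around promoter CpG islands. RefSeq windows of 300 bases around the canonical start, 250 before it and 50 after it on GRCh38.p14, were at hand for 8 of the 10 members, all but ITGA3 and ITGB4. The 250 bases upstream of the start are shown for ITGB1, the member of the highest level, and for the 2 members of the lowest level, ITGB8 and ITGB6. Each is written 5′ to 3′ on the strand of the gene, with every CpG in capitals. The windows lie at chr10:32958231-32958480 on the minus strand for ITGB1, at chr7:20330650-20330899 on the plus strand for ITGB8 and at chr2:160200273-160200522 on the minus strand for ITGB6.
ITGB1: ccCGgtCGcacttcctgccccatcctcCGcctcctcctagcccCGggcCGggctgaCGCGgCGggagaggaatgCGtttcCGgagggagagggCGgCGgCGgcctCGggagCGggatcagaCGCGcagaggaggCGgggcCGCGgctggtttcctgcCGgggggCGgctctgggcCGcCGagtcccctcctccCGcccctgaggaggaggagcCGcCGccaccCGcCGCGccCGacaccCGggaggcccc
ITGB8: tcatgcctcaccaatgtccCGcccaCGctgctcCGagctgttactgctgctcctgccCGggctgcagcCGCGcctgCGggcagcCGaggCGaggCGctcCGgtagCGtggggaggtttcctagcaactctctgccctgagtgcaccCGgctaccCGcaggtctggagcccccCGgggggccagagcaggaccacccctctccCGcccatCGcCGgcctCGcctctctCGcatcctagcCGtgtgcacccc
ITGB6: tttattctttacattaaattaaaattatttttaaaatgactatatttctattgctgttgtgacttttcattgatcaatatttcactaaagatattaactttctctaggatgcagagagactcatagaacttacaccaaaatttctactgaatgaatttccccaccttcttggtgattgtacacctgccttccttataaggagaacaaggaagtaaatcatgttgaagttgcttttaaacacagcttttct
The stretch printed for ITGB1 held 32 CpG, that of ITGB8 held 21 and that of ITGB6 held 0.

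Over the whole 300-base windows, ITGB1 held 39 CpG, ITGA6 38, ITGB5 32, ITGB8 28, ITGA2 27, ITGAV 23, ITGA5 16 and ITGB6 0. Among all 35116 windows of this length the median was 14 CpG, 47.5% held at least 16 and 3.96% held 0. The GC content of the ITGB6 window was 31.7%, against 78.3% for ITGB1 and 71.7% for ITGB8. ITGB6 was thus set apart from the other 7 members with a window by its sequence as well as by its level. The letters CACCTG, an E-box bound by zinc finger repressors of the SNAI and ZEB families, were searched on both strands and occurred in the windows of ITGB5 and ITGB6, and in 20.6% of all windows. No methylation or binding data were analysed here, and these matches are a description of the sequence.

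Total counts ranged from 25379279 to 29186963 per library, and the detection floor of 3 counts lay between 0.0993 and 0.113 CPM. CPM is the count relative to a library size that had been scaled by the TMM method. The floor covers counting error only. KDM1A (ENSG00000004487.17, chr1:23019468-23083689) measured 231, 224 and 213 CPM in WT replicates 1, 2 and 3 and 29.9, 27.6 and 27.7 CPM in LSD1 KO replicates 1, 2 and 3. Its log2 fold change was -2.97 (SE 0.15, q = 0.000451), and it was the 1 gene called by edgeR without a replicate block. WT and LSD1 KO libraries of the same number deviated together from their group means, so the replicate number was entered as a block in a further model. The number of genes called depended on the libraries used. The model with the block called 282 genes with all 6 libraries and 1055 without those numbered 2. It called 428 without those numbered 1 and 198 without those numbered 3. Of the colorectal epithelial markers, EPCAM, KRT8, KRT18, KRT19, CDH1 and CDX2 were present, while VIL1 and LGALS4 had at most 10 counts in each library. With the block, EPCAM was called at a log2 fold change of -0.98 (q = 0.0788), and KRT18 at -0.47, CDH1 at -0.34, KRT8 at -0.15, CDX2 at 0.013 and KRT19 at 0.45 were not called. The summed CPM of the 6 leukocyte markers ranged from 0.416 to 0.679 in WT libraries and from 0.50 to 0.907 in those of LSD1 KO cells. That of the 3 endothelial markers that were matched ranged from 0.529 to 1.09 and from 0.964 to 2.04. That of the 6 fibroblast markers ranged from 20.5 to 24.2 and from 30.3 to 34.4, nearly all of it from COL1A1, with COL1A2, COL3A1, DCN and LUM at 3 counts or fewer.

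Levels spanned more than 3 orders of magnitude. Per kilobase of the canonical transcript, ITGB1 had the highest mean level over the 6 libraries, 183 CPM per kb, followed by ITGA3 at 93.0, ITGB4 at 71.0 and ITGA6 at 38.8. ITGB5 at 20.6, ITGA5 at 17.0, ITGAV at 15.3 and ITGA2 at 8.84 CPM per kb formed a middle range, and ITGB8 at 0.703 and ITGB6 at 0.0507 CPM per kb came last. Between neighbours in this order, ITGB5 was above ITGA5 in 5 of 6 libraries and ITGA5 above ITGAV in 4 of 6, so neither of these neighbouring pairs is separated. Every other member was above the next in 6 of 6 libraries. With the coding length in place of the transcript length, ITGAV took place 6 and ITGA5 place 7. By CPM without the length, ITGB1 was at rank 138 of all 60240 genes, ITGA3 at 247, ITGB4 at 288 and ITGA6 at 649, whereas ITGB8 was at 11297 and ITGB6 at 18959.

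**Figure D1:**
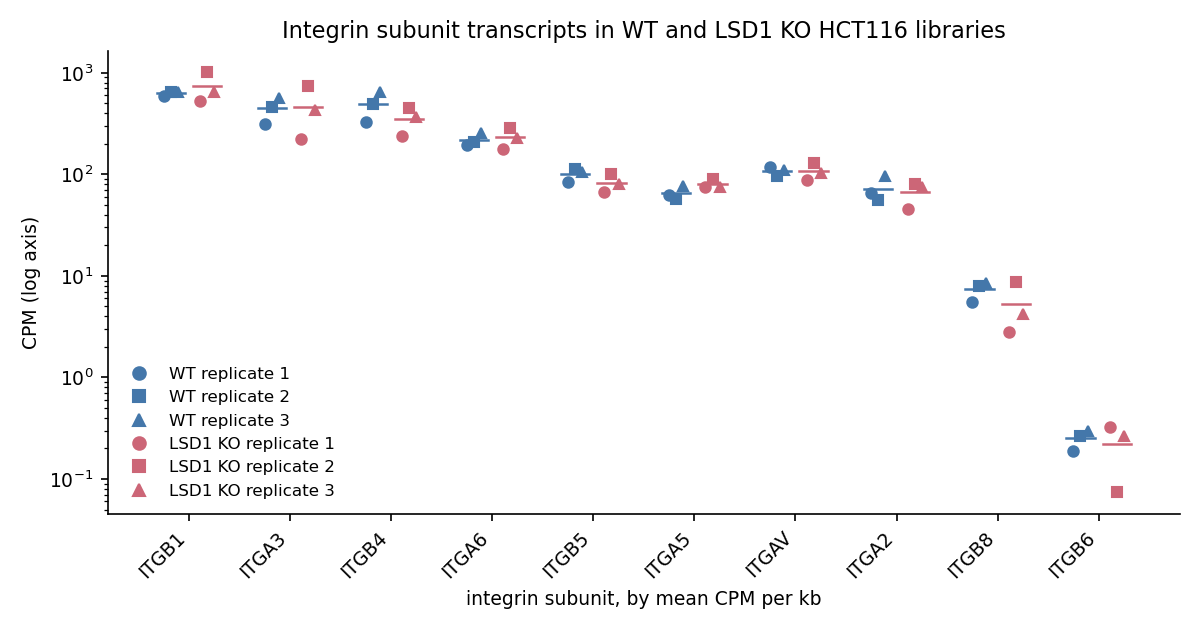
CPM on a log axis of the 10 integrin subunits, ordered by mean CPM per kb, in 3 WT and 3 LSD1 KO libraries of HCT116 cells. Each point is a library, shaped by its replicate number, and each line is the mean of a group. The points of the groups overlap for all 10 members, from ITGB1 between 528 and 1022 CPM to ITGB6 between 0.0736 and 0.321 CPM.

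None of the integrin subunits was called between LSD1 KO and WT cells by edgeR or DESeq2 without a replicate block. Some fits with the block did call members, and these calls are given below. In edgeR's quasi-likelihood test, fitted to all genes and adjusted by the Benjamini-Hochberg method, 0 of the 9 members tested had a q value under 0.1, the threshold of the study, and 0 had an unadjusted p under 0.05. Over all 17672 genes tested, 0.00566% were called and 3.12% had such a p. DESeq2 without the block called 0 members as well, and 0.376% of the genes to which it gave a q value. The groups did not overlap in CPM for 7.75% of the genes tested and for 0 of the 10 members. ITGB6 had too few counts for the test. In these bulk libraries, fewer cells of a type and less RNA per cell cannot be told apart.

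ITGB1 (ENSG00000150093.20, chr10:32900318-32958230), the common beta partner, measured 594, 649 and 649 CPM in WT replicates 1, 2 and 3 and 528, 1022 and 654 CPM in the LSD1 KO replicates. LSD1 KO replicate 2 was the highest and LSD1 KO replicate 1 the lowest of the 6 libraries. The log2 fold change was 0.22 with a 95% interval from -0.35 to 0.79 (SE 0.25, q = 0.9995). The pseudogene ITGB1P1 shares all of its 579 sequences of 31 bases with ITGB1 and held 97, 220 and 0 counts in WT libraries and 289, 70 and 0 in LSD1 KO libraries, so the quantifier could split reads between them. ITGB1 itself held between 14775 and 27782 counts.

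Among the laminin receptors, ITGB4 had a lower mean level in LSD1 KO than in WT libraries, while the means of ITGA3 and ITGA6 lay close to those in WT. ITGA3 (ENSG00000005884.18, chr17:50056110-50090481), a receptor subunit for epithelial laminins, measured 312, 465 and 567 CPM in WT and 222, 733 and 428 CPM in LSD1 KO replicates 1, 2 and 3. The LSD1 KO libraries held both the highest and the lowest value, and the log2 fold change was 0.040 (SE 0.40, interval from -0.88 to 0.96) without the block and -0.084 (SE 0.20) with it. ITGA6 (ENSG00000091409.15, chr2:172427336-172506459), the laminin-binding partner of both ITGB1 and ITGB4, measured 196, 208 and 253 CPM in WT and 179, 289 and 230 CPM in LSD1 KO libraries. Its groups overlapped in the same way, with a log2 fold change of 0.089 (SE 0.21).

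ITGB4 (ENSG00000132470.14, chr17:75721459-75757818), the hemidesmosomal beta subunit with a long tail that binds plectin, measured 330, 488 and 644 CPM in WT replicates 1, 2 and 3. In LSD1 KO replicates 1, 2 and 3 it measured 239, 445 and 368 CPM. Each LSD1 KO library was below the WT library of its own number, while WT replicate 1 was below LSD1 KO replicates 2 and 3. The mean was 487 ± 157 CPM in WT and 351 ± 104 CPM in LSD1 KO libraries (SD, n = 3 each). The log2 fold change was -0.47 in both models, with an SE of 0.30 and q = 0.9995 without the replicate block and an SE of 0.13 and q = 0.171 with it. DESeq2 with the block called ITGB4, at q = 0.0111, as the only member, and called 4.21% of the 14165 genes to which it gave a q value.

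ITGA2 (ENSG00000164171.11, chr5:52989352-53094779), the alpha subunit of the collagen receptor, measured 65.0, 55.8 and 95.2 CPM in WT and 45.7, 79.9 and 74.5 CPM in LSD1 KO replicates 1, 2 and 3. Its highest value lay in WT replicate 3 and its lowest in LSD1 KO replicate 1, and the log2 fold change was -0.11 (SE 0.27). ITGA5 (ENSG00000161638.11, chr12:54395261-54419266), the alpha subunit of the fibronectin receptor, measured 62.1, 56.6 and 76.2 CPM in WT and 75.4, 89.1 and 75.3 CPM in LSD1 KO replicates. WT replicate 3 was above LSD1 KO replicates 1 and 3 by less than 1 CPM, and the other 2 WT libraries were below all LSD1 KO libraries. ITGA5 had the most positive log2 fold change of the members, 0.30, with an SE of 0.17 and q = 0.9995 without the block and an SE of 0.13 and q = 0.356 with it.

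ITGAV (ENSG00000138448.12, chr2:186590056-186680901), the alpha subunit of the receptors for the Arg-Gly-Asp motif, measured 117, 96.3 and 111 CPM in WT and 87.5, 129 and 103 CPM in LSD1 KO replicates 1, 2 and 3. The WT values lay inside the range of the LSD1 KO values, and the log2 fold change was -0.021 (SE 0.19). ITGB5 (ENSG00000082781.12, chr3:124761948-124901418), which with ITGAV forms the vitronectin receptor of many epithelial cells, measured 84.5, 112 and 105 CPM in WT and 66.9, 101 and 80.5 CPM in LSD1 KO replicates. Each LSD1 KO library was below the WT library of its number, but LSD1 KO replicate 2 was above WT replicate 1. The log2 fold change was -0.28 (SE 0.20) without the block and -0.29 (SE 0.091, q = 0.222) with it.

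ITGB8 (ENSG00000105855.10, chr7:20329766-20415754), the ITGAV partner that presents latent TGF-beta, held 147, 211 and 258 counts in WT libraries and 79, 238 and 112 counts in LSD1 KO replicates 1, 2 and 3. These counts equal 5.55, 7.98 and 8.54 CPM and 2.82, 8.76 and 4.23 CPM. LSD1 KO replicates 1 and 3 were below all WT libraries, and LSD1 KO replicate 2 was above them. The log2 fold change was -0.48 (SE 0.41) without the block and -0.60 (SE 0.25, q = 0.357) with it. ITGB6 (ENSG00000115221.12, chr2:160099671-160200272), the ITGAV partner that epithelia induce on injury, held 5, 7 and 9 counts in WT libraries and 9, 2 and 7 counts in LSD1 KO libraries. LSD1 KO replicate 2, with 0.0736 CPM, was under the floor, so that no difference of ITGB6 was detectable at this depth.

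Only small parts of the members are shared with other annotated genes. Exons of 7 long noncoding RNAs on the opposite strand cover between 0.65% and 2.75% of the exon bases of ITGA5, ITGA6, ITGAV, ITGB1 or ITGB8. Among these 7, the largest overlap was that of ITGB1 with ITGB1-DT, and the most counts in any library were the 72 of PDK1-AS1 beside ITGA6. A noncoding gene on the strand of ITGB6 shares 16.7% of the ITGB6 exon bases and held at most 3 counts. The sources do not state a stranded kit or strand setting, and without strand the reads of such pairs cannot be told apart.

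The same-numbered libraries differed in how the members moved. In replicate 1, 8 of the 9 members tested were lower in LSD1 KO than in WT, with a median log2 difference of -0.42. In replicate 3, 8 of 9 were lower, with a median of -0.35. In replicate 2, 7 of 9 were higher, with a median of 0.48, and the exceptions were ITGB4 and ITGB5. Over all 17672 genes tested, the medians were 0.012, 0.0 and -0.00046 in replicates 1, 2 and 3. Thus the direction of most members depended on the replicate number, and the part of culture or handling in this was not tested.

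The single differences varied among the members. For ITGA3 the log2 difference was -0.49 in replicate 1, 0.66 in replicate 2 and -0.41 in replicate 3. ITGA2 followed the same order with -0.51, 0.52 and -0.35, and ITGAV with -0.42, 0.42 and -0.11. ITGB8 differed by -0.97, 0.13 and -1.01, and ITGA6 by -0.13, 0.48 and -0.13. ITGB1, with -0.17, 0.66 and 0.011, was near 0 in replicate 3. ITGA5 followed another order, with 0.28, 0.65 and -0.019. ITGB4 kept its direction, with -0.46, -0.13 and -0.81, and so did ITGB5, with -0.34, -0.15 and -0.39. These 2 members were lower in 3 of 3 pairs of libraries, which held for 17.5% of all genes tested, and 0 members were higher in 3 of 3 pairs, against 18.8% of all genes.

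**Figure D2:**
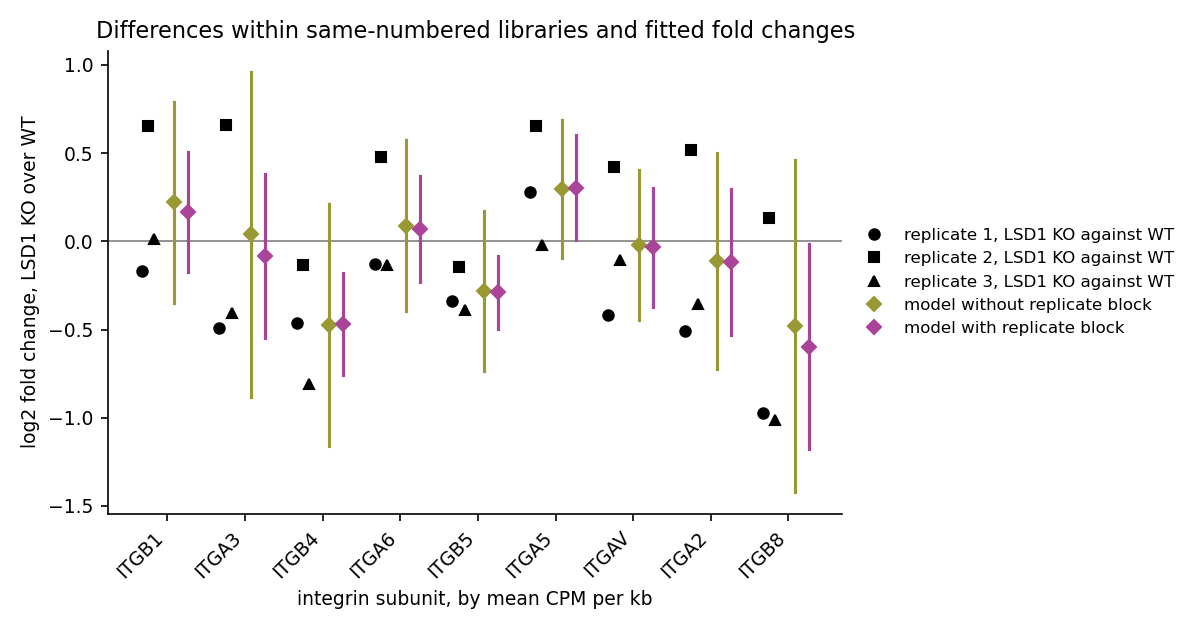
Log2 fold change of LSD1 KO over WT for the 9 integrin subunits tested. Black points are the differences between libraries of the same replicate number, and diamonds with lines are edgeR estimates with 95% intervals without and with the replicate block. The replicate 2 difference is the highest of the 3 for every member shown, and ITGB4 and ITGB5 are the members below 0 in all 3 pairs.

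With the replicate number as a block, 0 of 9 members were called, against 1.6% of all genes. An unadjusted p under 0.05 was reached by 4 of 9 members, lower for ITGB4, ITGB5 and ITGB8 and higher for ITGA5, and by 13.4% of all genes. The count rested on the libraries numbered 2. When they were left out and the block was kept, 5 of 9 members were called, all lower in LSD1 KO, against 2.79% of all genes called lower. These were ITGB4 (log2 fold change -0.65, SE 0.10, q = 0.000158), ITGA3 (-0.47, SE 0.092, q = 0.00261), ITGB8 (-1.01, SE 0.22, q = 0.00549), ITGA2 (-0.45, SE 0.11, q = 0.0143) and ITGB5 (-0.38, SE 0.10, q = 0.0390). ITGA5 was at 0.11 (SE 0.11), ITGA6 at -0.15 (SE 0.096), ITGAV at -0.28 (SE 0.11, q = 0.184) and ITGB1 at -0.097 (SE 0.090) in that fit. It used 2 libraries a group, and without the block the same 4 libraries called 0 members and 0.122% of all genes. With the block, leaving out the libraries numbered 1 instead called 0 members and 2.4% of all genes, and leaving out those numbered 3 called 0 members and 1.12% of all genes.

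Because an integrin needs both of its subunits, the ratio of the alpha to the beta count was taken in each library for 9 pairs known to form heterodimers. This ratio does not depend on the library size. With 3 libraries in each group no two-sided exact permutation p can be below 0.1, so none of the 9 comparisons can pass a threshold of 0.05. ITGA6 to ITGB4 was the 1 ratio of the 9 whose groups did not overlap, and 8.3% of the ratios between any 2 genes tested behaved so. It was 0.594, 0.426 and 0.392 in WT and 0.747, 0.649 and 0.625 in LSD1 KO replicates 1, 2 and 3. All LSD1 KO libraries thus held more ITGA6 per ITGB4 than any WT library.

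The mean log2 ratio of ITGA6 to ITGB4 was -1.11 ± 0.32 in WT and -0.57 ± 0.14 in LSD1 KO libraries (SD, n = 3 each). The difference was 0.54, a ratio 1.45 times as high, with an exact permutation p of 0.1, the smallest possible, and 0.771 after adjustment over the 9 pairs. Within replicates 1, 2 and 3 it was 0.33, 0.61 and 0.67, and leaving out each library in turn gave between 0.42 and 0.72. Replicate 2 thus had the same direction as replicates 1 and 3 in this ratio.

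The other ratios overlapped between the groups. ITGAV to ITGB8 was 21.1, 12.1 and 13.02 in WT and 31.01, 14.7 and 24.4 in LSD1 KO libraries, a log2 difference of 0.58 (exact permutation p = 0.2). It was higher in LSD1 KO in each of the replicates. ITGAV to ITGB5 was 1.39, 0.863 and 1.05 in WT and 1.31, 1.28 and 1.28 in LSD1 KO libraries, which lay close together inside the WT range. ITGAV to ITGB6 ranged from 272 to 1754 and rested on at most 9 counts of ITGB6.

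Against ITGB1, the log2 ratio differed by -0.28 for ITGA2, -0.25 for ITGA3, 0.14 for ITGA5, -0.095 for ITGA6 and -0.20 for ITGAV, with exact permutation p values between 0.4 and 0.7. The ratios of ITGA2 and ITGAV to ITGB1 were lower in LSD1 KO in 3 of 3 replicates. In all, 4 of the 9 ratios had the same sign in 3 of 3 replicates, against 35.7% of the ratios between any 2 genes tested. Single libraries moved these differences by more than 1.5 times, for ITGA3 to -0.012 without LSD1 KO replicate 1 and for ITGA2 to -0.081 without WT replicate 3.

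**Figure D3:**
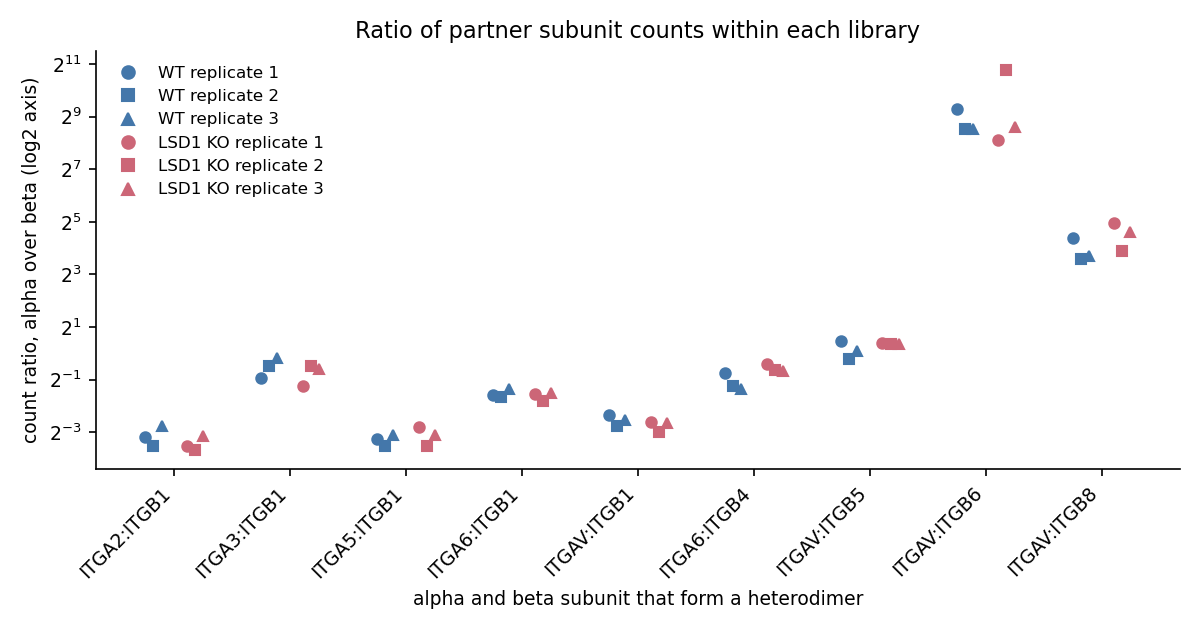
Ratio of alpha to beta subunit counts on a log2 axis for 9 partner pairs in 3 WT and 3 LSD1 KO libraries. Each point is a library, shaped by its replicate number. The ITGA6 to ITGB4 ratio is the 1 pair without overlap, from 0.392 to 0.594 in WT libraries and from 0.625 to 0.747 in LSD1 KO libraries.

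The make-up of the beta subunit transcripts was then taken per kilobase, as the share of each in the sum over the 5 beta members. ITGB1 made up 67.8%, 61.5% and 56.4% in WT and 71.6%, 73.4% and 68.3% in LSD1 KO replicates 1, 2 and 3, so that the groups did not overlap but lay within 1 percentage point of each other at their nearest. ITGB4 made up 23.8%, 29.3% and 35.5% in WT and 20.6%, 20.2% and 24.4% in LSD1 KO libraries, where LSD1 KO replicate 3 was above WT replicate 1. Shares in a library sum to 100, so the shares of the 5 beta members are not separate results.

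The mean share of ITGB1 was 61.9% ± 5.67 in WT and 71.1% ± 2.57 in LSD1 KO libraries, and that of ITGB4 was 29.5% ± 5.84 and 21.7% ± 2.31 (SD, n = 3 each). ITGB5 held 8.24% ± 0.602 and 6.94% ± 0.782, and ITGB8 0.296% ± 0.0281 and 0.202% ± 0.0534. Like the share of ITGB1, those of ITGB5 and ITGB8 did not overlap between the groups (exact permutation p = 0.1 each, the smallest possible). How often shares in sums of other genes separate in this way was not measured. These 2 shares too depend on that of ITGB1 in the same sum, and the CPM of ITGB1, ITGB5 and ITGB8 overlapped between the groups.

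Among the 5 alpha members ITGA3 led, with 53.6% ± 6.08 of the sum per kilobase in WT and 50.8% ± 9.90 in LSD1 KO libraries. ITGA6 followed with 22.4% ± 1.84 and 23.6% ± 3.74. ITGA5 held 9.16% ± 1.34 and 11.6% ± 3.83, ITGAV 9.37% ± 2.41 and 9.04% ± 1.89, and ITGA2 5.42% ± 0.963 and 4.97% ± 0.794. All 5 alpha shares overlapped between the groups. The transcripts of the laminin-binding alpha subunits thus outnumbered those of the collagen, fibronectin and Arg-Gly-Asp receptors in both groups.

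**Figure D4:**
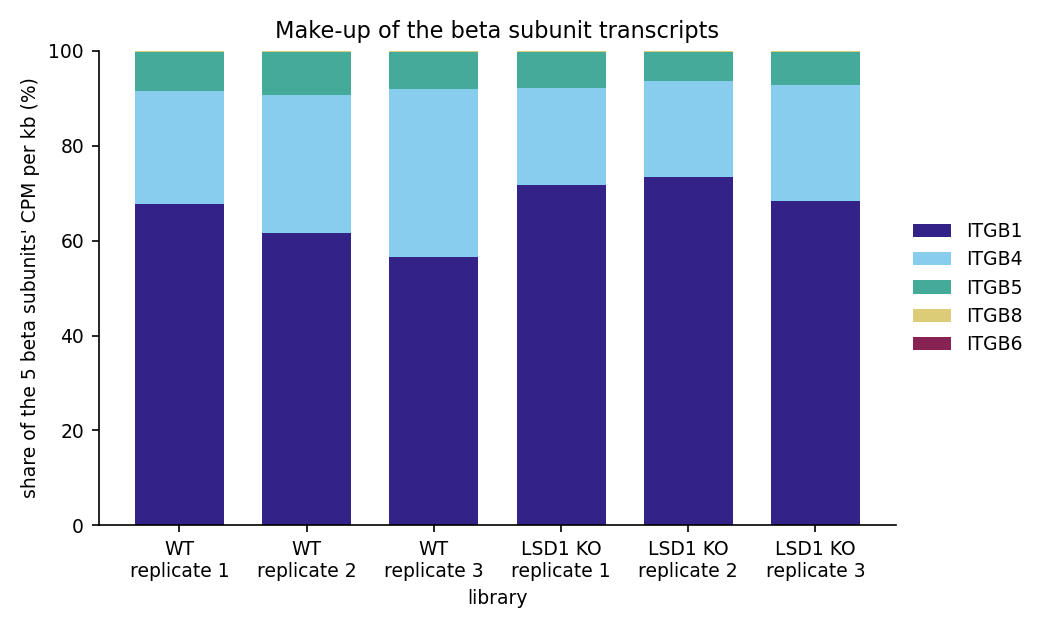
Share of each beta subunit in the summed CPM per kb of the 5 beta members, in percent, in each of the 3 WT and 3 LSD1 KO libraries. ITGB1 takes between 56.4% and 67.8% in WT and between 68.3% and 73.4% in LSD1 KO libraries, and ITGB8 and ITGB6 are too low to be seen.

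For the setting of these receptors, 117 other genes of integrin adhesion were read from the same fit in 9 lists by role. Of the 100 tested, 0 were called by edgeR without the block and 0 by DESeq2 without it. An unadjusted p under 0.05 in edgeR without the block was reached by 4, against 3.12% of all genes tested. In edgeR with the block it was reached by 19 of the 100, against 13.4% of all genes tested. With the replicate block 3 were called, all higher in LSD1 KO, against 1.05% of all genes called higher. Without the libraries numbered 2, edgeR with the block called 14 of them, against 1055 of all 18043 genes tested in that fit. DESeq2 with the block and all libraries called 7, against 4.21% of the genes to which it gave a q value. The calls given by list below are those of edgeR with all 6 libraries, unless another fit is named. The median log2 fold change of the 100 genes was 0.021 without the block and 0.024 with it, beside 0.00082 and 0.0030 over all genes tested.

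Of the 16 other integrin subunits, 10 were tested and 1 was called with the block. ITGAX, the alpha subunit of a leukocyte integrin, held 34, 70 and 88 counts in WT libraries and 103, 165 and 233 counts in LSD1 KO replicates 1, 2 and 3. All LSD1 KO libraries were above all WT libraries, with a log2 fold change of 1.43 (SE 0.21, q = 0.0251) with the block. Without the block the SE was 0.43 and the q value 0.9995. ITGB2, its beta partner, held at most 1 count in each library, and PTPRC, the common leukocyte antigen, at most 3. The 2 with the highest level were ITGAE, a partner of ITGB7, with 17.3 CPM in WT and 16.9 CPM in LSD1 KO, and ITGA7, a laminin-binding partner of ITGB1, with 15.0 and 15.6 CPM. ITGB7 itself held at most 15 counts.

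The laminin chains, ligands of ITGA3, ITGA6 and ITGB4, had a median log2 fold change of 0.13 in both models, and 1 of 12 was called with the block. LAMB2 held 83.1, 80.9 and 102 CPM in WT and 103, 117 and 134 CPM in LSD1 KO libraries, a log2 fold change of 0.41 (SE 0.089, q = 0.0983). LAMA5, the chain of the highest level and a part of intestinal basement membrane, was at 402 CPM in WT and 411 CPM in LSD1 KO, and LAMB3, a chain of the laminin of hemidesmosomes, was at 73.5 and 104 CPM (q = 0.208 with the block in edgeR and 0.0602 in DESeq2).

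Of the ligands with an Arg-Gly-Asp motif and other ligands, 15 of 21 were tested and 0 were called by edgeR in either model. DESeq2 with the block called MFGE8 higher (q = 0.0221) and NPNT lower (q = 0.0565), and edgeR with the block called NPNT, CCN1, L1CAM and LTBP1 lower and LTBP3 higher when the libraries numbered 2 were left out. LTBP3, which binds latent TGF-beta, was at 185 CPM in WT and 209 CPM in LSD1 KO, and TGFB1 was at 90.1 and 90.2 CPM. Of the collagen chains, 5 of 8 were tested and COL1A1 was called with the block, at 20.4, 23.7 and 23.8 CPM in WT and 30.1, 33.2 and 33.9 CPM in LSD1 KO libraries. Its log2 fold change was 0.52 (SE 0.098, q = 0.0628). COL1A2, the other chain of type I collagen, held at most 1 count in each library. COL4A5, a basement membrane chain, was at 23.4 CPM in WT and 22.6 CPM in LSD1 KO. Its log2 differences in replicates 1, 2 and 3 were -0.49, 0.61 and -0.48. Without the libraries numbered 2, edgeR with the block called COL4A5 lower (-0.51, q = 0.0222) and COL1A1 higher (q = 0.0129).

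The 4 hemidesmosome partners of ITGA6 and ITGB4 all had negative estimates and 0 were called in either model. Of all 17672 genes tested, 8856 had a positive estimate without the block and 8925 with it. Their median log2 fold change was -0.29 without and -0.25 with the block. COL17A1, a transmembrane collagen that binds ITGB4, held 49, 40 and 87 counts in WT libraries and 29, 8 and 36 counts in LSD1 KO replicates 1, 2 and 3. The LSD1 KO counts were below all WT counts, with a log2 fold change of -1.32 (SE 0.37, q = 0.181) with the block. DST, a plakin that links keratin to hemidesmosomes, was at 311, 135 and 292 CPM in WT and 182, 146 and 203 CPM in LSD1 KO libraries (log2 fold change -0.40, SE 0.15, q = 0.315). It was higher in LSD1 KO in replicate 2 and lower in the other 2 replicates, and without the libraries numbered 2 it was called with the block (-0.67, q = 0.00011). The other 3 partners were not called in that fit. PLEC, plectin, was at -0.042 and CD151, a tetraspanin bound to laminin receptors, at -0.093 with the block. Both changed sign between replicates.

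Of the activators and inhibitors of integrins, which act at the subunit tails or upstream of them, 13 of 14 were tested and 0 were called by edgeR in either model, while DESeq2 with the block called CIB1 (q = 0.0305). FLNA, filamin A, which links actin to membrane proteins, was at 977 CPM in both groups, and CIB1, a calcium-binding inhibitor, at 44.8 CPM in WT and 62.3 CPM in LSD1 KO.

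The focal adhesion adaptors and kinases, which join bound integrins to actin, lay between -0.39 and 0.32 with the block, and 0 of 27 were called in either model. ACTN4, an actinin, was at 773 CPM in WT and 831 CPM in LSD1 KO, and ZYX, zyxin, at 141 and 133 CPM. Of the 5 integrin-linked tetraspanins 0 were called in either model, with CD81 at 298 and 280 CPM and CD9 at 216 and 228 CPM. Of the 9 trafficking genes tested 0 were called in either model, with ARF6 at 232 and 258 CPM and SNX17 at 109 and 107 CPM.

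**Figure D5:**
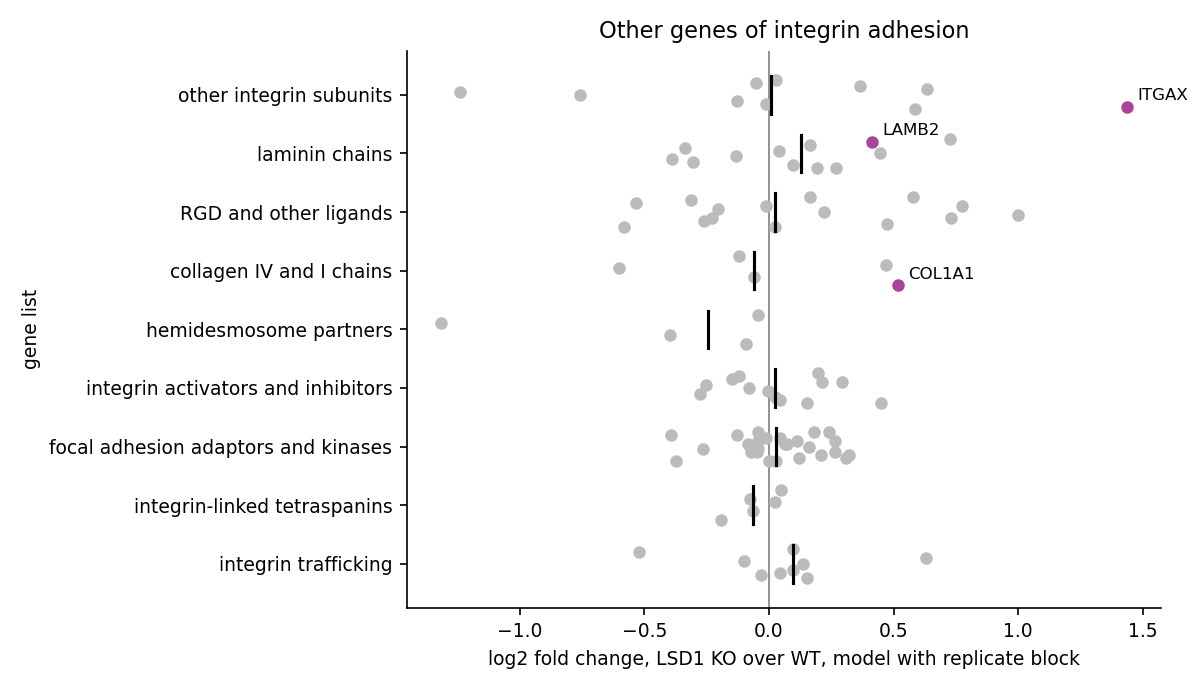
Log2 fold change of LSD1 KO over WT in the model with the replicate block for the 100 other genes of integrin adhesion that were tested, by list. Each point is a gene, black lines are list medians, and named points are the 3 genes called. ITGAX is at 1.43, COL1A1 at 0.52 and LAMB2 at 0.41. All 4 hemidesmosome partners lie below 0, with PLEC at -0.042 and CD151 at -0.093.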

How the data were processed

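Per the labels and the methods, poly(A) RNA of HCT116 cells was sequenced on an Illumina HiSeq. The authors trimmed reads with Trimmomatic 0.39 and quantified them with Salmon 1.4.0 against GENCODE on GRCh38, and deposited expected counts per gene as whole numbers, neither scaled nor pooled. The step from transcripts to genes is not given in the sources used here. Counts were entered in edgeR 4.0.16 (R 4.3.3) with TMM, filterByExpr and the quasi-likelihood test, adjusted by the Benjamini-Hochberg method over 17672 genes, with q under 0.1 as a call. DESeq2 1.42.0 was an alternative. Partner ratios were compared with two-sided exact permutation tests. Symbols were matched for 58395 of 60240 genes. Positions and promoters came from RefSeq on GRCh38.p14 and lengths from GENCODE v44lift37. Python 3.11.15 and matplotlib 3.10.9 drew the figures, and the steps were tested on simulated data.

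Deviations from group means of same-numbered WT and LSD1 KO libraries had Pearson's r of 0.553, 0.553 and 0.404 (17672 genes, which are no replicates), and differently numbered libraries ranged from -0.516 to 0.0454. The numbers were therefore taken to pair the libraries. The pairing comes from the data, not from the labels. The biological coefficient of variation common to all genes fell from 0.279 to 0.133 with the block.

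The members, listed by symbol with no rule on values, and the gene lists were chosen with earlier results of these data known. All members, KDM1A, genes of the lists called with or without the block, the 2 genes of the highest level per length in each list, and genes overlapping a member were named. Other genes of the lists are given by counts, 1 gene is not reported here and is left out of them, and DST, COL17A1, ITGB2, ITGB7, COL1A2, MFGE8, NPNT, CCN1, L1CAM and LTBP1 were named after their values were seen. Alternatives were other size factors, filters and tools, the replicate block, a threshold of 0.05, and leaving out each library or pair.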

Additional observations from a re-analysis of the deposited data

How the results depend on the processing

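KDM1A was called under all 17 alternatives, with a log2 fold change between -3.01 and -2.95. In each of their 17 alternatives, ITGB4, ITGB5 and ITGB8 stayed lower and ITGA5 stayed higher in LSD1 KO, but single libraries moved their size. ITGB8 ranged from -1.08 without LSD1 KO replicate 2 to -0.18 without LSD1 KO replicate 1, ITGB5 from -0.47 to -0.15 without the same libraries, ITGB4 from -0.70 without LSD1 KO replicate 2 to -0.22 without WT replicate 3, and ITGA5 from 0.20 without LSD1 KO replicate 2 to 0.43 without WT replicate 3. The count of 0 members called became 1 under DESeq2 with the replicate block and 5 under the replicate block without replicate 2 of both groups, and stayed at 0 under the other alternatives. Over all genes, 1 call became 282 with the replicate block, 597 under DESeq2 with the replicate block, 95 under DESeq2 without it and 114 with all genes that had any count. With the replicate block and without replicate 1, 2 or 3 of both groups the counts were 428, 1055 and 198, and without replicate 2 and without the block the count was 22. Leaving out single libraries gave between 1 and 26, the latter without LSD1 KO replicate 2. The causes were not tested.

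Among the other genes of integrin adhesion, 0 calls became 3 with the replicate block, 7 under DESeq2 with the replicate block, and 5, 14 and 2 with the block and without replicate 1, 2 or 3 of both groups. The last 4 settings, like the fits without replicate 2 and without the block, were chosen after the data had been seen. The 1 partner ratio without overlap became between 1 and 3 when a single library was left out. In the replicate block another measure was counted, the same sign in 3 of 3 pairs, which 4 of 9 ratios met. Of the ratios between any 2 genes tested, 8.3% were without overlap and 35.7% had the same sign in 3 of 3 pairs.

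The direction turned for ITGA2, ITGA3, ITGA6, ITGAV and ITGB1 under some alternatives. ITGA2 turned to 0.079 and 0.0091 with the block and without replicate 1 or 3 of both groups, and ranged from -0.28 to 0.14 without single libraries. ITGA3 turned to -0.084 with the replicate block and -0.090 under DESeq2 with it, to -0.47 and -0.46 with and without the block when replicate 2 of both groups was left out, and ranged from -0.48 to 0.37 without single libraries. ITGA6 turned to -0.15 both with and without the block when replicate 2 of both groups was left out (-0.12 to 0.25 without single libraries), and ITGB1 to -0.097 and -0.091 (-0.11 to 0.41). ITGAV turned to 0.16 and 0.0050 with the block and without replicate 1 or 3 of both groups (-0.20 to 0.10 without single libraries). Without single libraries the log2 ratio to ITGB1 ranged from -0.47 to -0.081 for ITGA2, from -0.44 to -0.012 for ITGA3, from -0.031 to 0.33 for ITGA5, from -0.16 to 0.0014 for ITGA6 and from -0.30 to -0.081 for ITGAV. That of ITGAV ranged from 0.094 to 0.44 to ITGB5, from -0.43 to 0.92 to ITGB6 and from 0.35 to 0.88 to ITGB8. ITGB6 could be fitted under few alternatives, because its counts were too low for the filters, and depth limits it.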
